A study of Mus musculus with 8 samples.

Results

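The 45 genes described here encode enzymes and transporters of central carbon metabolism: glycolysis, sugar and lactate transport, the pentose phosphate pathway, pyruvate entry into mitochondria, the citrate cycle, glutamate and aspartate conversion, fatty acid synthesis, and the alpha and beta subunits of ATP synthase. They are 45 of the 21896 protein-coding genes in the RefSeq table used. Their data were all called crosslinking and immunoprecipitation (CLIP) peaks with a midpoint inside the gene's span on the mouse mm10 assembly, on the strand that held most of the gene's called peaks. That gave 708 of 167648 called peaks in the Zmat3 knockout immunoprecipitate (IP), and 651 of 129323, 743 of 153768 and 621 of 122284 in controls 1, 2 and 3. The energy genes thus held 0.422% of called peaks in the knockout IP and 0.498% ± 0.0131 in the control IPs (SD, n = 3). In the 43 genes whose strand was annotated, the strand chosen this way matched the annotation in 43.

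The study mapped RNA bound by Zmat3, a zinc finger RNA-binding protein encoded by a p53 target gene, in mouse embryonic fibroblasts transformed by the adenoviral oncogene E1A and by HrasG12V, both delivered by retrovirus to every line. The knockout group was 1 line with genotype Zmat3-/-;E1A;HrasG12V and no sgRNA. The control group was 3 Cas9+;E1A;HrasG12V lines, each with a different negative-control sgRNA, labelled EV (control 1), SPA (control 2) and ACOCA (control 3), selected with puromycin. Cells of each line were crosslinked with UV light, lysed and treated with RNase, Zmat3 was immunoprecipitated, and RNA was taken from the 35 to 110 kDa range of a gel; each of the 4 IPs had an input. Because the knockout is a single line that, per the labels, carries neither Cas9 nor an sgRNA, loss of Zmat3 and these other differences cannot be told apart. The labels give the inputs the same 35 to 110 kDa gel range. An IP over input compares RNA recovered with the antibody and RNA of the input sample, and a control IP over the knockout IP compares recovery with and without Zmat3. A higher recovery per transcript and a higher level of the transcript itself cannot be told apart in the second of these.

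Glycolysis splits glucose into pyruvate in the cytosol, and lactate dehydrogenase turns pyruvate into lactate, which leaves the cell through monocarboxylate transporters. Pyruvate that enters mitochondria feeds the citrate cycle, whose electrons drive ATP synthase, while citrate that is exported supplies acetyl-CoA for fatty acids. Proliferating and Ras-transformed fibroblasts are known for high glucose uptake and lactate release. Pkm, the pyruvate kinase gene of fibroblasts, carries a pair of mutually exclusive exons that give different enzyme forms, a textbook case of splicing regulated by RNA-binding proteins.

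Sequences are shown for the 5 called sites of these genes that the RefSeq promoter table (GRCm38.p6) covers and that bear on the values given below, each 30 bases long, on the transcribed strand. In Ogdh, Atp5b, Slc16a1 and Sdha, capitals mark bases that lay inside a called peak of all 4 IPs. In Pkm, capitals mark bases called in controls 1 and 2, where the knockout and control 3 had no called peak. The Atp5b, Slc16a1 and Sdha windows begin 20, 20 and 15 nt after the annotated transcript start. The Ogdh window begins 394 nt after the first annotated start.
Ogdh, chr11:6291991-6292020, plus strand: GCCGCGAAGGTGGCGGGCTAGGGAGTAGGT
Pkm, chr9:59657216-59657245, plus strand: cCTCCCCCCGCATTCTAGTCACGTCCGCgg
Atp5b, chr10:128083327-128083356, plus strand: aTGTTGAGTCTTGTGGGGCGTGTGGCCTCG
Slc16a1, chr3:104638684-104638713, plus strand: acgtgactggtcGGTCGTGTAGGTGCAGCA
Sdha, chr13:74350196-74350225, minus strand: cttgcgggAAGGCAGACATGGCcggggttg
These windows are described by their letters only: T made up 4 of the 30 bases in Ogdh, 6 in Pkm, 10 in Atp5b, 7 in Slc16a1 and 5 in Sdha, where T averages 23.0% over all sequences of the promoter table.

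Called peaks of the whole series are sites where the authors computed a log2 fold and a −log10 p-value, and most of them are not enriched. Read counts are absent from the lists, so depth is unknown here and values carry no counting interval. The median log2 fold over input of all called peaks was 0.23 in the knockout IP, and 0.90, 0.60 and 0.60 in controls 1, 2 and 3. In the lists over the knockout IP, the medians were 1.18, 0.88 and 1.00 in controls 1 to 3, so a log2 fold near 1 is typical of those lists; all 3 lists share the 1 knockout library. Fibroblast identity was checked with 11 marker genes, of which 6 had a called peak in the knockout IP and 5 in all 3 control IPs. These markers held 185 peaks in the knockout, and 191, 203 and 144 in controls 1 to 3, with Fn1, Vim and Col5a1 among them, whereas Col1a1, Col1a2, Thy1 and S100a4 had 0 in every IP. The 24 markers of other cell types held 24 peaks in the knockout, and 19, 21 and 18 in controls 1 to 3. Epithelial markers took 22 of these in the knockout, and 9, 10 and 12 in the controls, and the neural marker Map2 took 0 in the knockout, and 9, 8 and 4 in the controls; the part of these differences in the results was not tested. Against 3 controls, 1 knockout library cannot give an exact permutation p below 0.25, so knockout and control values are set side by side and no p is given.

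Peaks enriched over input were rare in the energy genes. Enrichment required a log2 fold of 3 or more together with a −log10 p-value of 3 or more. Over input, 0 of the 708 peaks of the energy genes were enriched in the knockout IP, where 0.316% of all called peaks were. The controls had 3, 4 and 0 such peaks, averaging 2.33 ± 2.08 (SD, n = 3), beside 1.02%, 1.05% and 0.494% of all called peaks in controls 1 to 3. As a share, 0.333% ± 0.291 of the controls' energy-gene peaks were enriched (SD, n = 3), and in each control the share lay under that of its own list. Without control 2 the mean count was 1.50. Counted by fold alone, 0 peaks of the energy genes reached 3 in the knockout, beside 0.487% of all called peaks, and 12, 11 and 4 did in controls 1 to 3, beside 2.52%, 2.21% and 1.04%. The highest single value of an energy gene over input was 2.55 in the knockout, and 4.48, 4.60 and 3.60 in the controls.

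The genes with peaks enriched over input were few and recurred between controls. Control 1 had Atp5a1 (alpha subunit of ATP synthase), Gapdh (glyceraldehyde-3-phosphate dehydrogenase) and Fasn (fatty acid synthase), with 1 peak each. Control 2 had the same 3 genes and Sdha, the flavoprotein subunit of succinate dehydrogenase. When the knockout IP was the comparator, controls 1 to 3 had 1, 8 and 6 enriched peaks, averaging 5 ± 3.61 (SD, n = 3). These were 0.154%, 1.08% and 0.966% of the energy-gene peaks, beside 0.621%, 1.09% and 0.648% of all called peaks in the same lists. The share lay under that of the list in control 1, close to it in control 2 and above it in control 3. Control 2 had such peaks in Atp5a1, Sdha, Gapdh, Glud1, Pgam1, Slc16a3 and Tkt, control 3 in Atp5a1, Sdha, Pfkp and Slc16a1, and control 1 in Atp5a1 alone. Atp5a1 was the single energy gene with such a peak in all 3 controls.

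A region was called reproducible where at least 2 controls had a peak enriched over input that overlapped a peak enriched over the knockout IP. The energy genes held 1 of the series' 203 such regions, in Atp5a1. That is 1 of the 42 energy genes with called peaks in all 3 controls, where 2.28% of all such protein-coding genes (195 of 8569) had a region. Without control 1, without control 2, or with an overlap of 50% of the shorter peak, the energy genes held 0 regions. A further region qualified in control 2 alone, in Sdha. Sites of the energy genes were also followed through all libraries by merging overlapping called peaks of the 4 IPs, and each library is represented by its strongest peak at the site. Of 1462 sites, 237 were called in all 3 controls with values over both comparators. Of these, 2 (0.844%) had a log2 fold of at least 2 over both comparators in all 3 controls, those in Atp5a1 and Sdha, beside 1.94% of all such sites. Over input alone 7 sites reached 2 in all 3 controls, beside 4.89% of all sites, and over the knockout IP alone 9 did, beside 6.72%.

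The Atp5a1 site lay on chromosome 18 at 77775619 to 77775752, plus strand, 1917 nt from the gene's start. It had no called peak in the knockout IP. Its log2 fold over input was 4.48, 3.77 and 2.68 in controls 1 to 3, averaging 3.65 ± 0.91 (SD, n = 3). Against the knockout IP, the control values were 3.77, 4.62 and 3.09, averaging 3.82 ± 0.77 (SD, n = 3). Control 3 lay under 3 over input and so supported the region over the knockout IP only. Control 2 had a pair of adjoining peaks here, and its strongest peak over input was not its strongest over the knockout IP.

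The Sdha site lay on chromosome 13 at 74333236 to 74333322, minus strand, 16961 nt from the gene's start, and it too had no called peak in the knockout IP. Over input its log2 fold was 3.48, 4.60 and 3.60 in controls 1 to 3 (3.89 ± 0.61, SD, n = 3). Relative to the knockout IP it was 2.77, 3.88 and 3.58 (3.41 ± 0.58, SD, n = 3). All 3 controls passed the fold over input, but the −log10 p-value was 2.16 in control 1 and 2.95 in control 3, under the threshold, against 6.15 in control 2. Sdha sits at the junction of the citrate cycle and the respiratory chain.

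Fasn and Gapdh held sites that stood above input in every control and less far above the knockout IP. The Fasn site (chromosome 11, 120822868 to 120822985, minus strand) was not called in the knockout, and its log2 fold over input was 3.19, 3.31 and 3.60 in controls 1 to 3 (3.36 ± 0.21, SD, n = 3). The Fasn values over the knockout IP were 1.74, 2.59 and 1.26 (1.86 ± 0.67, SD, n = 3). The Gapdh site (chromosome 6, 125163472 to 125163657, minus strand) was not called in the knockout either, with log2 folds over input of 4.12, 3.26 and 2.60 (3.33 ± 0.76, SD, n = 3). Its values over the knockout IP were 1.24, 3.07 and 2.41 (2.24 ± 0.93, SD, n = 3), and the control 2 value over the knockout IP came from the peak next to the one enriched over input. Gapdh has many processed copies in the mouse genome, and the placement of reads shared with such copies was not given in the sources used here.

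Other sites were high over the knockout IP while close to input, or the reverse. A site in Slc16a1, which encodes the monocarboxylate transporter MCT1, lay at chromosome 3, 104652795 to 104652861, and was not called in the knockout. Its log2 fold over the knockout IP was 2.77, 2.62 and 3.28 in controls 1 to 3 (2.89 ± 0.35, SD, n = 3), whereas over input it was −0.10, −0.47 and 0.30. Slc2a1, the main glucose transporter of fibroblasts, had a like site at chromosome 4, 119134375 to 119134477. There the knockout IP had a log2 fold over input of −1.77, and the controls 0.65, −0.36 and 0.40, all above the knockout. This Slc2a1 site, over the knockout IP, had 2.38, 2.24 and 2.17 (2.26 ± 0.11, SD, n = 3). The 3 values share the 1 knockout library, so this SD leaves out variation of the knockout. A second Slc2a1 site, at 119132163 to 119132273, was not called in the knockout and had 1.88, 1.88 and 1.90 over the knockout IP, with −0.69, −0.12 and −0.08 over input. Neither Slc2a1 site reached the fold of 3 that defines enrichment. At the second, the −log10 p-value over the knockout IP was 2.43, 2.59 and 1.59 in controls 1 to 3, under the threshold.

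The reverse pattern appeared in Ogdh and Pfkp. Ogdh encodes the first component of the 2-oxoglutarate dehydrogenase complex, and its site near the transcript start (6291828 to 6292056) includes the Ogdh bases printed above. It was the energy-gene site with the highest knockout log2 fold: 2.55 over input in the knockout IP (−log10 p-value 1.27), and 2.05, 2.19 and 2.84 in controls 1 to 3. That knockout value came from a peak upstream of the printed bases. The knockout peak over those bases, 6291980 to 6292056, had 2.45. The Ogdh site was, over the knockout IP, at −0.17, −0.62 and −0.17, below the median of each list. Over input, both knockout values lay within the range of the controls. In Pfkp, the platelet-type phosphofructokinase, the site at chromosome 13, 6640814 to 6640906 had 2.11 over input in the knockout, and 3.64, 2.34 and 3.30 in controls 1 to 3. Its values over the knockout IP were 0.60, −0.55 and 0.96, again under the list medians. The −log10 p-value over input was at most 2.84 at the Ogdh site and 2.45 at the Pfkp site. Neither site thus passed the p-value threshold of 3 over input in any IP.

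**Figure D1:**
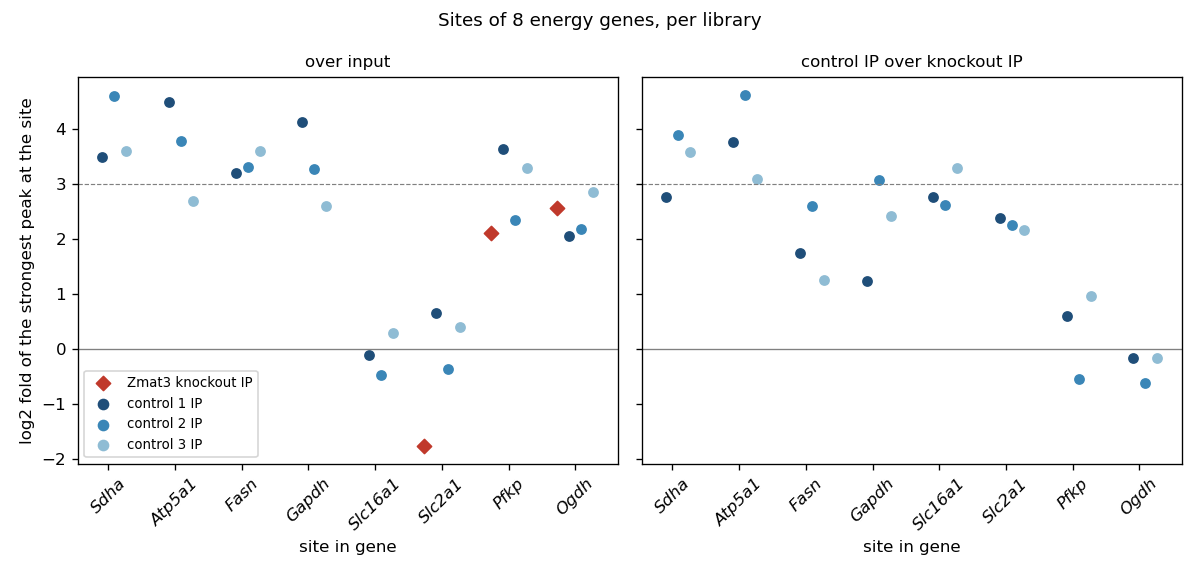
Log2 fold of the strongest called peak at 8 sites of energy genes (vertical axis, log2), over input on the left and for the control IP over the knockout IP on the right; red diamonds are the 1 knockout IP, blue circles the 3 control IPs, and the dashed line marks a log2 fold of 3. A knockout point is drawn where the knockout had a called peak: Slc2a1 at −1.77, Pfkp at 2.11 and Ogdh at 2.55; Atp5a1 and Sdha are high in both panels.

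Further sites also had low −log10 p-values. Control 2 alone passed the p-value threshold at Glud1, Pgam1 and Dlst, and no control passed it at Got2 and Acaca. A site in Got2, the mitochondrial aspartate aminotransferase (chromosome 8, 95869659 to 95869770), had 2.31, 3.34 and 1.92 over input and 2.60, 3.62 and 2.90 over the knockout IP in controls 1 to 3. A site in Glud1, glutamate dehydrogenase (chromosome 14, 34343473 to 34343562), had 1.90, 2.68 and 2.40 over input and 2.18, 3.55 and 2.39 over the knockout IP. A site in Acaca, acetyl-CoA carboxylase (chromosome 11, 84364034 to 84364126), had 3.12, 2.34 and 1.60 over input and 3.41, 2.62 and 2.58 over the knockout IP. A site in Dlst, the succinyltransferase of the 2-oxoglutarate dehydrogenase complex (chromosome 12, 85128167 to 85128275), had 2.12, 2.10 and 2.40 over input and 1.82, 2.80 and 1.81 over the knockout IP. None of these 4 sites was called in the knockout. The Pgam1 site (chromosome 19, 41915462 to 41915573), in the phosphoglycerate mutase gene, was uneven between controls: 2.31, 2.34 and 0.60 over input, and 2.60, 4.62 and 2.58 over the knockout IP.

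At the transcript starts printed above, 3 genes shared a pattern, chosen here after their values were seen. In Sdha, the peak over the start had a log2 fold over input of −2.09 in the knockout IP and 0.64, 0.02 and 0.01 in controls 1 to 3, and 1.70, 1.40 and 1.36 over the knockout IP. In Slc16a1, the start peak had −1.35 over input in the knockout and 0.09, −0.74 and −0.53 in the controls, and 2.09, 1.09 and 1.72 over the knockout IP. In Atp5b, which encodes the beta subunit of ATP synthase, it had −1.81 in the knockout and 0.40, −0.31 and −0.53 in the controls, and 1.50, 1.19 and 1.02 over the knockout IP. In all 3 genes the knockout value over input lay below every control. These values are not centred. Relative to the list medians, the values over the knockout IP were 0.51, 0.51 and 0.36 in Sdha and 0.90, 0.21 and 0.72 in Slc16a1. In Atp5b they were 0.32, 0.31 and 0.02. The control values over input lay between −0.74 and 0.64, so none of these starts was enriched over input. At the Pkm bases, controls 1 and 2 had 1.24 and 0.92 over input, and 1.85 and 1.40 over the knockout IP.

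Energy-gene sites recurred between libraries more often than sites elsewhere. Of their 1462 sites, 191 (13.1%) were called in all 4 IPs, beside 4.08% of the 394542 sites of all protein-coding genes. A further 46 (3.15%) were called in all 3 controls and not in the knockout, beside 1.90% of all sites. Sites called in 2 controls and not in the knockout numbered 129 (8.82%), beside 7.49%, and sites called in the knockout and 1 or 2 controls numbered 232 (15.9%), beside 12.5%. Sites called in the knockout alone numbered 246 (16.8%), beside 24.7% of all sites, and sites called in 1 control alone numbered 618 (42.3%), beside 49.3%. Called peaks were also denser in these genes: the median was 0.714 peaks per kb of gene in the energy genes with at least 5 called peaks in each control, and 0.462 in all such genes. How much of the recurrence goes with this density was not tested.

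Peaks sat toward the 3′ end of the energy genes. The last of 10 equal bins of the gene span held 18.8% of energy-gene peaks in the knockout IP, and 15.8%, 16.8% and 16.4% in controls 1 to 3, beside 13.5% of all gene peaks in the knockout and 13.2%, 15.4% and 14.0% in the controls. The first bin held 9.60% of energy-gene peaks in the knockout and 10.8%, 8.08% and 9.82% in the controls. In all 4 IPs the energy-gene share in the last bin was above that of all genes. In the first bin all genes had 13.9% in the knockout and 14.9%, 12.2% and 13.9% in the controls, above the energy genes in each IP.

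Each gene was next summarised by the median log2 fold over all its called peaks minus the median of the whole list, here called the gene-level value. It describes a whole transcript, not a site. With at least 5 called peaks in every IP, 31 energy genes could be compared over input. Of these, 17 had a value under −0.05 in all 4 IPs, beside 21.2% of all 4737 such genes. Their median was −0.36 in the knockout IP, where that of all genes was 0.00, and −0.45 in the controls, where it was −0.03. The knockout lay below all 3 controls in 8 energy genes, beside 37% of all genes, and above all 3 in 7, beside 11.3%. Those above were Pfkl, Slc2a1, Slc16a1, Glud1, Got2, Atp5a1 and Atp5b, and those below were Gpi1, Tpi1, Ldha, Pgd, Sdhb, Mdh2, Got1 and Fasn; the Acly values of the knockout and control 1 were equal. These orders hold for centred values, and the list median was 0.23 in the knockout, and 0.90, 0.60 and 0.60 in the controls. Without centring, Slc2a1 alone of the genes above stays above all 3 controls, and the genes below stay below.

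**Figure D2:**
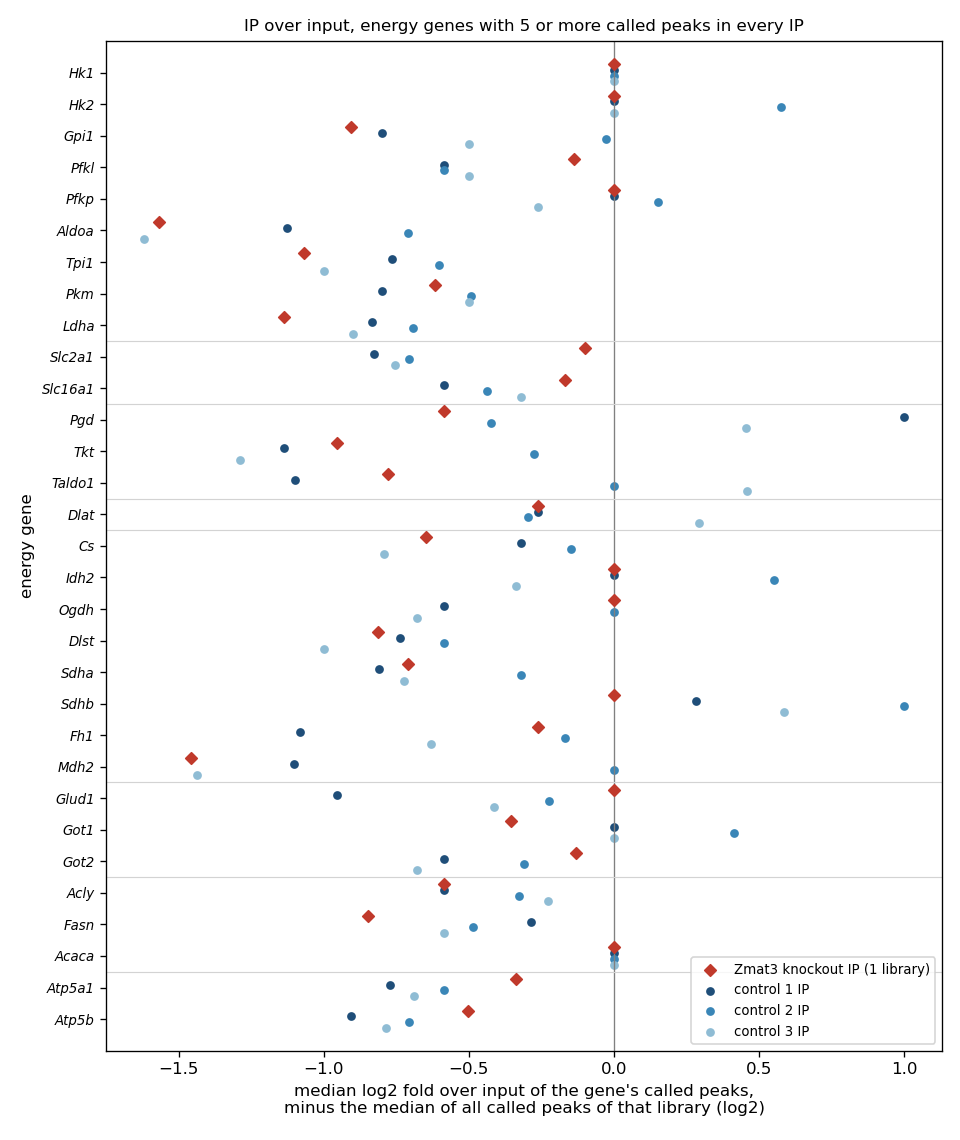
Gene-level log2 fold over input (horizontal axis, log2, relative to the median of all called peaks of that library) for the 31 energy genes with at least 5 called peaks in every IP, grouped by role between grey lines; red diamonds are the 1 knockout IP and blue circles the 3 control IPs. Most points lie left of 0, with Aldoa at −1.57 in the knockout and lowest of all at −1.62 in control 3, and the Slc2a1 knockout point lies right of all 3 controls.

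Over the knockout IP, 33 energy genes had at least 5 called peaks in each control. None lay above the list median by 0.5 or more in all 3 controls, beside 4.7% of all 4979 such genes (234). Below it by 0.5 or more in all 3 controls lay 6, beside 6.83% of all genes (340): Fasn, Mdh2, Acly, Atp5a1, Cs and Tkt. With means in place of medians, Fasn alone was below and Pfkp and Pc were above; with no centring on the list median, 0 were below and 19 above. The median of the 33 was −0.24, where that of all genes was 0.00. Low values went with dense peaks. Among the 1660 genes with most peaks per kb, 12.2% were below, and this stratum held 20 of the 33 energy genes and 5 of the 6. Its median was −0.37 over the energy genes and −0.19 over all genes.

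**Figure D3:**
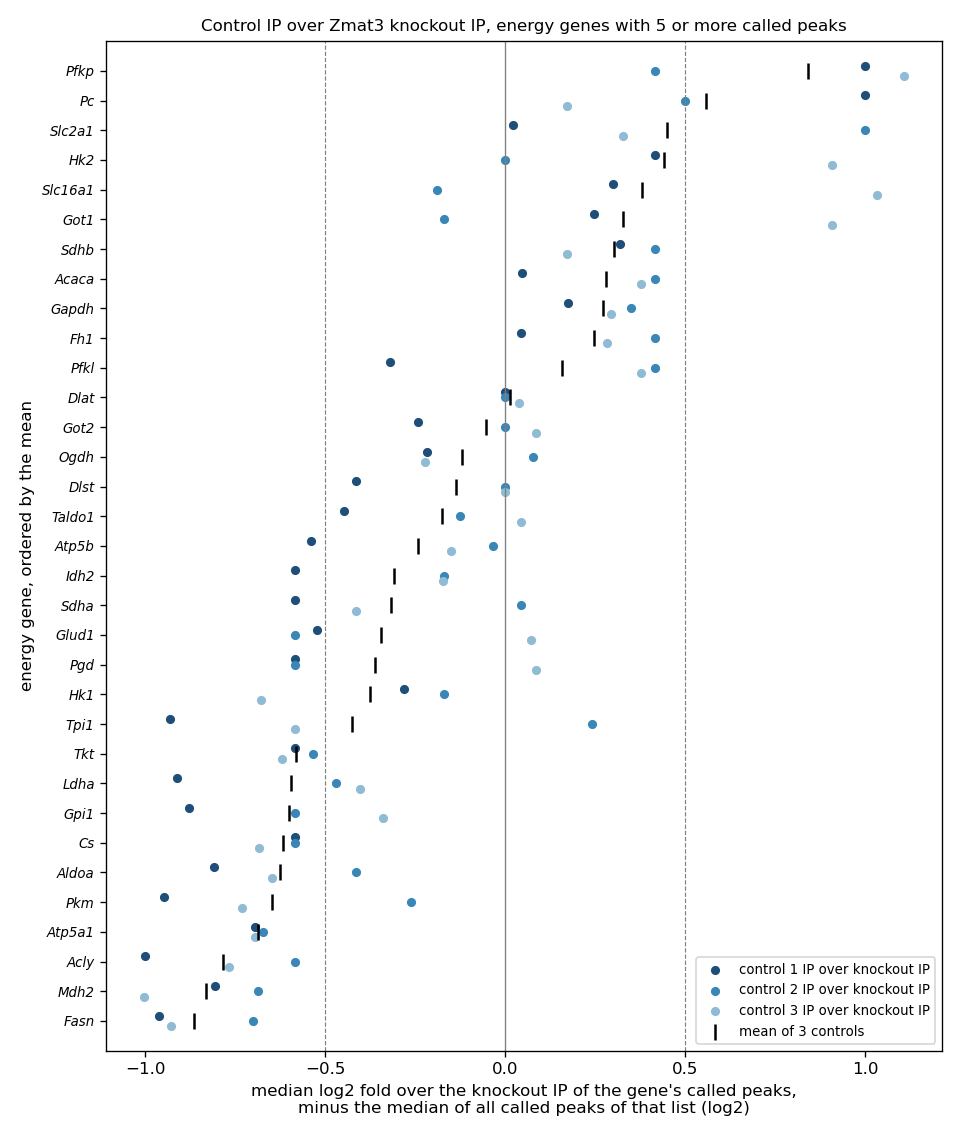
Gene-level log2 fold of the control IP over the knockout IP (horizontal axis, log2, relative to the median of all called peaks of that list) for the 33 energy genes with at least 5 called peaks in each control, ordered by the mean; circles are controls 1 to 3, bars their mean, dashed lines mark −0.5 and 0.5. Pfkp is highest at a mean of 0.84, and Fasn lowest at −0.86; the 3 controls share the knockout library.

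Among the 14 glycolysis genes, 10 could be summarised over the knockout IP, and their median was −0.40. Pfkp stood highest of the 33 energy genes with a value, with 1.00, 0.42 and 1.11 in controls 1 to 3 (0.84 ± 0.37, SD, n = 3). Control 2 kept it from the call, which it meets in the other 2 controls. Hk2, the inducible hexokinase that traps glucose in the cell, had 0.42, 0.00 and 0.91 (0.44 ± 0.45, SD, n = 3), a spread as large as its mean. Gapdh had 0.17, 0.35 and 0.29 (0.27 ± 0.09, SD, n = 3), above the list median in all 3 controls. Over input, the gene-level value of Gapdh was −0.58 in the knockout, from 3 peaks, and 0.17, 0.23 and 0.58 in the controls.

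Pkm, Ldha and most other glycolysis genes lay lower. Pkm had −0.95, −0.26 and −0.73 over the knockout IP (−0.65 ± 0.35, SD, n = 3), so that control 2 alone stood within 0.5 of the list median. Ldha, the lactate dehydrogenase subunit typical of glycolytic cells, had −0.91, −0.47 and −0.40 (−0.60 ± 0.28, SD, n = 3). Over input, Ldha was at −1.14 in the knockout, and −0.84, −0.69 and −0.90 in the controls, all below the list medians. Aldoa, fructose-bisphosphate aldolase, had −0.81, −0.42 and −0.65 over the knockout IP (−0.62 ± 0.20, SD, n = 3). Over input, Aldoa was among the lowest in every IP, at −1.57 in the knockout and −1.13, −0.71 and −1.62 in the controls. Gpi1 and Tpi1, a pair of isomerases, had means of −0.60 ± 0.27 and −0.43 ± 0.60, and Hk1 had −0.38 ± 0.27 (SD, n = 3). Pfkl, the liver-type phosphofructokinase, stood at 0.16 ± 0.41 (SD, n = 3), with control 1 below the list median and the other 2 above it. Without a gene-level value, for want of 5 called peaks in each control, were Pfkm (4 peaks in the knockout and 5, 6 and 2 in the controls), Pfkfb3 (1 in the knockout and 3, 2 and 4), Pgk1 (6 in the knockout and 5, 6 and 2) and Pgam1 (5 in the knockout and 4, 6 and 3). Pfkm and Pc also had called peaks on the opposite strand, 0 of them enriched.

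Pkm gave no enriched peak in any list. It held 48 called peaks in the knockout IP, and 37, 47 and 32 in controls 1 to 3. Its highest peak over input had a log2 fold of 2.35 in the knockout, and 2.37, 2.12 and 2.60 in the controls, so that the knockout lay within their range. The highest Pkm peak over the knockout IP had 1.85, 2.41 and 1.25 in controls 1 to 3. The part of the gene 3′ of its midpoint held 41.7% of Pkm peaks in the knockout, and 48.6%, 48.9% and 53.1% in the controls. In bin 7 of 10 equal bins along Pkm, the median over input was −0.95 over 7 peaks in the knockout, and −0.10, 0.29 and −0.63 over 5, 6 and 5 peaks in the controls. Bin 7 was not particular: the knockout was also below every control in bins 1, 2, 6, 8 and 9. In bin 3 it was above every control, at 0.79 beside 0.13, 0.22 and 0.36. These medians are not centred, and the list median over input was lowest in the knockout. Relative to the list medians, the knockout is no longer below every control in bins 1, 2 and 7. In bins 6, 8 and 9 it stays below, and in bin 3 above. A Pkm site at 59675423 to 59675512, not called in the knockout, had 1.02, 2.12 and 1.18 over input and 0.30, 2.24 and 0.17 over the knockout IP, and was thus above the list median over the knockout IP in control 2 only. Which of these peaks lie in the mutually exclusive exons was not analysed here.

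**Figure D4:**
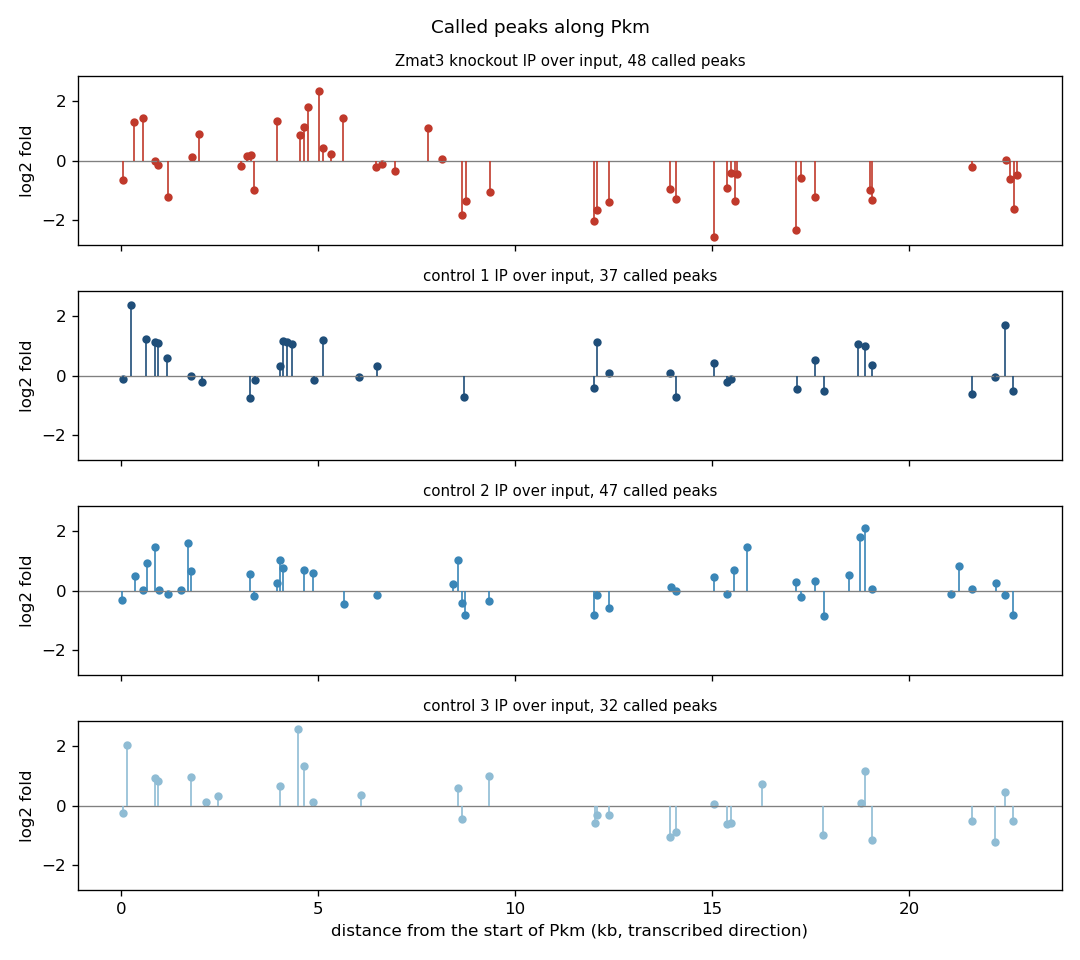
Log2 fold over input of every called peak along Pkm (vertical axis, log2) against distance from the gene's start in the transcribed direction (horizontal axis, kb), with 1 panel for the knockout IP and 1 for each control IP. No peak reaches a log2 fold of 3 in any panel, and in the knockout panel the median is below 0 in each of the last 5 of 10 equal bins.

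Transporter genes lay above the list median over the knockout IP on average, with wide spread. Slc2a1 had 0.02, 1.00 and 0.33 (0.45 ± 0.50, SD, n = 3), and Slc16a1 had 0.30, −0.19 and 1.03 (0.38 ± 0.62, SD, n = 3). Over input, Slc2a1 was at −0.10 in the knockout, and −0.83, −0.71 and −0.76 in the controls, which lay close together and below the knockout. Relative to the list medians, Slc2a1 thus stood lower over input in the controls than in the knockout. Its values over the knockout IP were above the list median in the same controls. Without centring the order over input stays the same and the gap is smaller. The list median was 0.23 in the knockout, and 0.90, 0.60 and 0.60 in the controls. Slc16a3, which encodes the lactate exporter MCT4, had 2 called peaks in the knockout and 0, 9 and 1 in the controls, with 1 peak enriched over the knockout IP in control 2. Of its 12 peaks over the 4 IPs, 5 also lay in the span of another gene.

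In the pentose phosphate pathway, which makes NADPH and ribose, all 3 genes with a gene-level value had a mean below the list median. Tkt, transketolase, had −0.58, −0.54 and −0.62 over the knockout IP (−0.58 ± 0.04, SD, n = 3), all just past the 0.5 used for the call. A Tkt site (chromosome 14, 30571145 to 30571241) had 1.65 over input in the knockout, and −0.08, −0.18 and −0.69 in controls 1 to 3. Pgd, which oxidises phosphogluconate, had −0.36 ± 0.39, and Taldo1, transaldolase, −0.18 ± 0.25 (SD, n = 3). G6pdx, the entry enzyme of the pathway, had 3 peaks in the knockout and 2, 3 and 1 in the controls, and 9 of 9 lay in the span of another gene.

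Genes of pyruvate entry had few peaks. Pc, pyruvate carboxylase, had 1.00, 0.50 and 0.17 over the knockout IP (0.56 ± 0.42, SD, n = 3). It was named in the table used as Pcx, and 6 of its 28 peaks lay in the span of another gene. Dlat, the acetyltransferase of the pyruvate dehydrogenase complex, had 0.00, 0.00 and 0.04 (0.01 ± 0.02, SD, n = 3), at the list median. Pdk1, the kinase that shuts pyruvate dehydrogenase, had 0 called peaks in the knockout, and 1, 3 and 3 in the controls, too few for a gene-level value. Pdha1 had 11 peaks in the knockout and 5, 4 and 5 in the controls, with a highest log2 fold over input of 2.11 in the knockout and 1.90, 1.19 and 1.60 in the controls.

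The citrate cycle group held 2 of the 6 genes called below. Mdh2, mitochondrial malate dehydrogenase, had −0.81, −0.69 and −1.0 over the knockout IP (−0.83 ± 0.16, SD, n = 3). Cs, citrate synthase, had −0.58, −0.58 and −0.69 (−0.62 ± 0.06, SD, n = 3). The other subunit of succinate dehydrogenase summarised, Sdhb, lay the other way, with 0.32, 0.42 and 0.17 (0.30 ± 0.12, SD, n = 3). Fh1, fumarase, had 0.04, 0.42 and 0.28 (0.25 ± 0.19, SD, n = 3), above the list median in all 3 controls. Sdha as a whole gene stood at −0.58, 0.04 and −0.42 (−0.32 ± 0.32, SD, n = 3), although it held the site described above. Ogdh (−0.12 ± 0.17), Dlst (−0.14 ± 0.24) and Idh2 (−0.31 ± 0.24) had means below the list median by less than 0.5 (SD, n = 3 each). Idh1, Idh3a, Sucla2 and Mdh1 had fewer than 5 called peaks in at least 1 control, and Idh1 had none in controls 1 and 2.

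Among the enzymes of glutamate and aspartate, none met the call in either direction. Got1, the cytosolic aspartate aminotransferase, had 0.25, −0.17 and 0.91 over the knockout IP (0.33 ± 0.54, SD, n = 3). Got2 had −0.24, 0.00 and 0.08 (−0.05 ± 0.17, SD, n = 3), close to the list median. Glud1 had −0.52, −0.58 and 0.07 (−0.35 ± 0.36, SD, n = 3). Over input, Glud1 was at 0.00 in the knockout, and −0.95, −0.22 and −0.42 in the controls, all below the knockout relative to the list medians. Without centring, the Glud1 knockout value lies within the range of the controls.

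Fatty acid synthesis held the lowest of the 33 energy genes with a value, Fasn. Its gene-level values over the knockout IP were −0.96, −0.70 and −0.93 (−0.86 ± 0.14, SD, n = 3), with 49 called peaks in the knockout and 41, 47 and 37 in the controls. Acly, the ATP citrate lyase that makes cytosolic acetyl-CoA, had −1.0, −0.58 and −0.77 (−0.78 ± 0.21, SD, n = 3). Acaca, the next enzyme after Acly, differed from both, with 0.05, 0.42 and 0.38 (0.28 ± 0.20, SD, n = 3). Over input, Fasn was at −0.85 in the knockout, and −0.29, −0.49 and −0.58 in the controls, all above the knockout. Fasn thus held a site enriched over input in controls 1 and 2 inside a transcript whose median lay low over the knockout IP.

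Both ATP synthase genes had means below the list median. Atp5a1 had −0.69, −0.67 and −0.70 over the knockout IP (−0.69 ± 0.01, SD, n = 3). That SD was the smallest among the 6 genes called below. Without its peaks enriched over the knockout IP, the mean was −0.72. A median over 12, 13 and 17 peaks hardly moves when a few high ones are left out, so this value tells nothing about the site. Atp5b had −0.54, −0.04 and −0.15 (−0.24 ± 0.26, SD, n = 3). Over input, Atp5a1 was at −0.34 in the knockout, and −0.77, −0.58 and −0.69 in the controls, and Atp5b was at −0.50 in the knockout, and −0.91, −0.71 and −0.79 in the controls. Relative to the list medians, every control lay below the knockout in both genes. The list median was 0.23 in the knockout, and 0.90, 0.60 and 0.60 in the controls. Without centring the order is the reverse, with the knockout below every control in both genes. An internal Atp5b site at chromosome 10, 128085288 to 128085359 had 2.54 over input in the knockout, and −0.93, 0.32 and 1.00 in controls 1 to 3. The −log10 p-value of this knockout peak was 12.9, beside 1.27 at the Ogdh site, whose knockout log2 fold was 2.55.

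The number of called peaks was compared per 100000 called peaks of each IP, in 39 energy genes with at least 5 peaks in the knockout or on average in the controls. In 5 genes the knockout lay under every control and at no more than 0.5 times their mean, beside 10.2% of all genes, a share close to that background: Pfkp, Pfkl, Gapdh, Dlat and Pc. Pfkp had 14 called peaks in the knockout IP and 49, 42 and 60 in controls 1 to 3, and after scaling the knockout had 0.22 times the control mean. Its highest log2 fold over the knockout IP was 3.77, 3.10 and 4.28, and the 2 enriched Pfkp peaks were both in control 3. Pfkl had 8 peaks in the knockout and 12, 23 and 12 in the controls (0.42 times). Gapdh had 3 peaks in the knockout and 7, 8 and 6 in the controls (0.35 times). In 1 gene the knockout lay above every control at 2 or more times their mean, beside 9.01% of all genes: Sucla2, with 7 peaks in the knockout and 0, 2 and 2 in the controls.

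**Figure D5:**
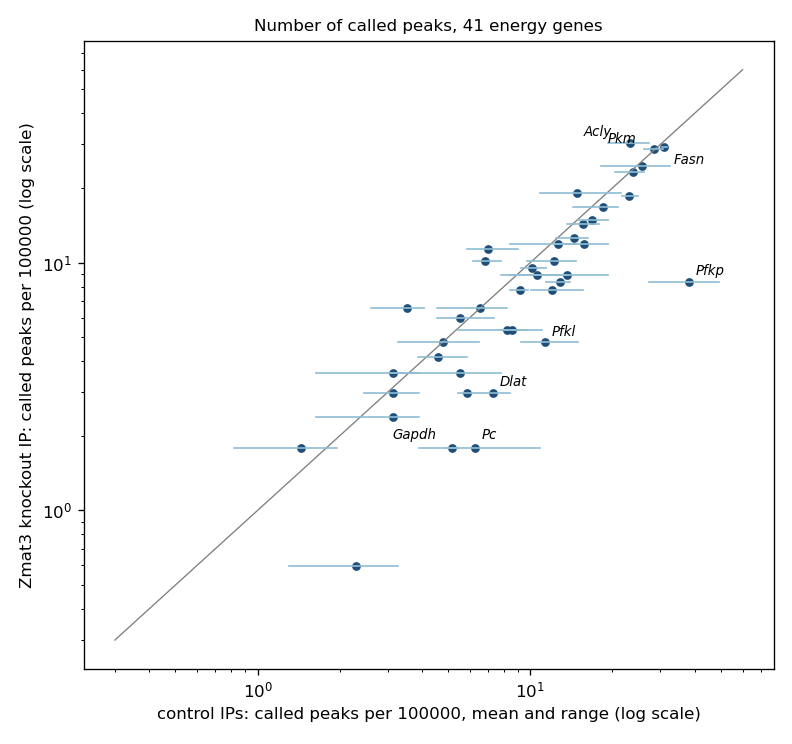
Called peaks per 100000 called peaks of the IP for the 41 energy genes with peaks in every IP, the knockout IP on the vertical axis and the control IPs on the horizontal axis (mean as points, lowest to highest control as lines; log scales); the grey line marks equal numbers. Pfkp lies far below the line with 14 peaks in the knockout, and Pkm and Fasn lie close to it.

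A wider list of 161 genes of the same pathways, complexes and transporters gave the surroundings. Of these, 134 had called peaks in all 3 controls and 3 held a reproducible region: Pck2, Slc25a12 and Scd2. That share is close to the 2.28% (195 of 8569) of all protein-coding genes with called peaks in all 3 controls. Pck2, the mitochondrial enzyme that makes phosphoenolpyruvate, held one on chromosome 14 at 55547530 to 55547656 whose log2 fold averaged 6.65 ± 0.71 against input and 6.17 ± 0.41 against the knockout IP (SD, n = 3). Slc25a12, the mitochondrial aspartate-glutamate carrier, held one on chromosome 2 at 71324147 to 71324238 whose log2 fold averaged 3.69 ± 0.37 against input and 4.54 ± 0.36 against the knockout IP (SD, n = 3). Scd2 held one on chromosome 19 at 44301080 to 44301156, supported by 2 controls. Its log2 fold averaged 4.40 ± 0.78 against input and 4.58 ± 0.93 against the knockout IP (SD, n = 3). Of 54 wider genes with a gene-level value, 5 lay above the list median by 0.5 or more in all 3 controls (Pck2, Gpt2, Pycr1, Aldh18a1 and Asns), beside 4.7% of all genes, and 3 below it (Slc25a4, Cox7a2 and Atp5g3), beside 6.83%, and the median of the 54 was −0.05. Genes enter that count by their peaks in the controls alone, whatever the knockout holds. Of the 5, 4 belong to glutamine and proline metabolism, which had 7 genes with a value. Among these, Pycr1, which makes proline, had 0 called peaks in the knockout and 7, 7 and 6 in the controls, and Gpt2, an alanine aminotransferase, had 1 in the knockout and 21, 12 and 20 in the controls.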

How the data were processed

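The deposited data were 7 peak lists, 4 of an IP over input and 3 of a control IP over the 1 knockout IP. The log2 fold and the −log10 p-value of each peak were deposited by the authors and used as given; lists have no header, so these units were read from the values. The −log10 p-value was capped at 400. The build, mm10, is per the submitters' processing notes. The aligner, the peak caller, the input library used, the treatment of peaks without comparator reads and the handling of duplicates were not given in the sources used here. All 8 samples were grouped by their titles. Separate lines served as control replicates.

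Peaks were assigned by midpoint to RefSeq gene spans (GRCm38.p6), and sites, regions, gene-level medians and counts were computed with Python 3.11.15, pandas 2.3.3 and NumPy 2.4.6. Thresholds were a log2 fold and a −log10 p-value of 3, an overlap of 1 nt, 5 called peaks and a shift of 0.5. The 3 commonest log2 folds of a list held 33.4% to 42.5% of its peaks, so gene-level medians move in steps; they were compared at 4 decimals, so that equal values tie. Of the genes, 44 matched by symbol and 1 by synonym. Exon annotation was not used here. Region calling was tested on simulated data. Between a control's pair of lists, 99.8% of called positions were the same.

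The genes and lists were chosen with earlier results of these data known. Values were given for Pkm, Gapdh, Ldha, Hk2, Slc2a1, Pdk1 and Fasn whatever they were, for genes with a region or with peaks enriched over both comparators, for genes that 2 or more controls showed enriched against the knockout IP, for the 6 with the highest minimum and the 6 with the lowest maximum gene-level value, for the 3 with most peaks, and for wider-list genes with a region. Other genes were named to account for the group, after their values were seen. Alternatives were other thresholds, overlaps, comparators, centring and summaries, and leaving out each control.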

Additional observations from a re-analysis of the deposited data

Results flagged for a closer look

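In 5 results the knockout lay on the other side of 0 from all 3 controls, among the gene-level values over input of energy genes with peaks in every IP and among the sites with the highest values; none of these differences was tested, since the knockout has 1 library. The gene-level log2 fold of Gapdh over input, relative to the list median, was −0.58 in the knockout and 0.17, 0.23 and 0.58 in controls 1 to 3, with 3 called peaks behind the knockout value and 7, 8 and 6 behind the control values. For Pgam1 it was −1 in the knockout and 0.78, 0.87 and 0.58 in the controls, from 5 peaks in the knockout and 4, 6 and 3 in the controls. Values of the 3 sites that follow are not relative to the list median. At the Sdha transcript start, the knockout had a log2 fold of −2.09 over input, and controls 1 to 3 had 0.64, 0.02 and 0.01, of which the last 2 are close to 0. Relative to the list medians, the knockout had −2.32 there and the controls −0.26, −0.58 and −0.58, all on the same side of 0. At the Tkt site from 30571145, the knockout had a log2 fold of 1.65 over input, and controls 1 to 3 had −0.08, −0.18 and −0.69. Over the knockout IP that Tkt site had 0.51, 0.10 and 0.29. At the Pkm site from 59657393, the knockout had −0.0051 over input, which is close to 0, and controls 1 to 3 had 1.12, 1.48 and 0.92. Over the knockout IP that Pkm site had 0.13, −0.10 and −0.32, each below the median of its list.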

How the results depend on the processing

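Counts of enriched peaks and regions were small and moved with the thresholds. At a log2 fold of at least 2 instead of 3, the knockout had 1 enriched peak over input and the control mean was 5.33; at 4 the control mean was 1.00. Over the knockout IP, the control mean was 13.0 at 2, 1.00 at 4 and 2.00 at a −log10 p-value of at least 5. Leaving out 1 control gave 1.50 to 3.50 over input and 3.50 to 7 over the knockout IP. The number of reproducible regions was 2 at a fold of 2 (Atp5a1 and Gapdh), 0 at a fold of 4, 0 with an overlap of 50% of the shorter peak, 0 with support by all 3 controls, 2 over the knockout IP alone (Atp5a1 and Sdha) and 3 over input alone (Atp5a1, Gapdh and Fasn); leaving out 1 control gave 0 to 1, with 0 without control 1 or control 2. Genes above the list median numbered 2 with means in place of medians (Pfkp and Pc) and 19 with no centring, and 0 to 1 with a control left out (Pfkp without control 2, Pc without control 3). Genes below numbered 1 with means (Fasn), 0 with no centring, 0 at a shift of 1, and 6 to 9 with a control left out. With means centred on the list mean, an alternative chosen after seeing the data, they numbered 3 (Mdh2, Acly and Fasn).

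With no centring, the 6 genes called below turned positive: Tkt 0.44, Cs 0.40, Mdh2 0.19, Acly 0.24, Fasn 0.16 and Atp5a1 0.33; their call is relative to list medians of 0.88 to 1.18, so centring itself accounts for the turn. No gene called below changed sign under the other alternatives run. No paired analysis was possible because the knockout has 1 library and the control numbers pair with nothing in it. Read depth is unknown, which leaves the precision of single peaks unstated, and gene-level values of genes with few peaks rest on few distinct folds.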
